A study of Mus musculus with 44 samples.

Results

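Sox17, Gata4, Gata6, Foxa2, Hnf4a, Dab2, Cubn, Lrp2, Afp and Ttr are 10 genes that mark primitive endoderm and the visceral endoderm that forms from it. They were followed through all probe sets that carry their symbols in the platform annotation. A probe set is the group of short probes that an Affymetrix array uses to measure a transcript. The 10 genes had 17 probe sets among the 12422 tested, which name 8251 genes with a symbol of their own.

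The samples are mouse embryonic stem (ES) cells of the line CGR8, clone cgr8.8, measured from total RNA on single-channel Affymetrix MG-U74Av2 arrays. Wild-type CGR8.8 cells had 4 arrays. All other cells carried an insertion targeted to Rosa26, a locus often used because inserted genes are expressed from it widely. Cells with Hex, a homeodomain transcription factor, at Rosa26 had 4 arrays in the unrecombined and 4 in the recombined state. Cells with HexERTVP2 at Rosa26 came as clone 1 and clone 2, each in both states and with or without 4-OHT (4-hydroxytamoxifen, a ligand of modified oestrogen receptor domains). For clone 1 there were 5 arrays of unrecombined cells without 4-OHT and 3 with it, and 4 arrays of recombined cells in either condition. Clone 2 had 3 arrays in each of these groups. These make 11 groups with 40 arrays, and 4 more arrays carried labels that contradict themselves and entered no comparison. Each HexERTVP2 line is a single clone, so what belongs to a clone and what belongs to its insertion cannot be told apart. The labels give neither a dose nor a time for 4-OHT, nor the step by which recombination was done, nor whether the arrays of a group come from separate cultures, so p-values measure the spread between these arrays.

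Primitive endoderm is the layer that separates from the pluripotent cells of the blastocyst and gives rise to visceral and parietal endoderm. Gata6, Gata4 and Sox17 are transcription factors that act early in this lineage, and Foxa2 and Hnf4a act in the visceral endoderm. Visceral endoderm takes up maternal proteins through the receptors cubilin (Cubn) and megalin (Lrp2) with the adaptor Dab2, and it secretes carrier proteins such as alpha-fetoprotein (Afp) and transthyretin (Ttr).

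All values are log2 intensities, and the median of all probe sets lay between 6.73 and 6.81 on every array. A probe set below that median was not shown to exceed background, since the table holds no detection calls. The cells had high levels of ES cell markers, with Pou5f1 at 9.78 to 12.08, Nanog at 9.90 to 11.63 and Sox2 at 10.57 to 11.79 over the 40 arrays. The Hhex probe set, which should report Hex, lay at 4.94 to 6.46 on the 40 arrays, recombined Hex included, always below the array median, so the labels could not be checked with it. Array 2 of unrecombined Hex stood apart. Its Pou5f1 level was 9.78, against 10.62 or more on the other arrays. The summed linear intensity of 22 pluripotency genes was 11654 on it and 18880 to 27229 on the other 39 arrays, and that of 16 fibroblast markers 4044 against 2087 to 3189. The log2 ratio of the 3′ to the 5′ probe sets of β-actin, which rises when RNA is degraded, was 2.24 on it and 1.14 to 1.30 on the other arrays of its group. By that ratio it was not alone, since array 3 of recombined clone 1 without 4-OHT had 2.34 and array 3 of recombined clone 2 with 4-OHT 2.24. For 7 of the 17 probe sets it was also the highest of the 40 arrays, among them Afp 101494_at at 8.09 and Cubn 94999_at at 7.55. Results are therefore also given without it where that changes a call.

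The bases upstream of the genes that differed among the groups are shown because Hex binds DNA and GATA factors act in this lineage. Of the 10 genes, 6 were found in the RefSeq promoter table (GRCm38.p6); Sox17, Gata4, Gata6 and Ttr were not. Each run gives the 250 bases before a transcription start, read 5′ to 3′ on the gene's strand, and capitals mark the motifs that were found.
Dab2 first start (chr15:6299539-6299788, + strand): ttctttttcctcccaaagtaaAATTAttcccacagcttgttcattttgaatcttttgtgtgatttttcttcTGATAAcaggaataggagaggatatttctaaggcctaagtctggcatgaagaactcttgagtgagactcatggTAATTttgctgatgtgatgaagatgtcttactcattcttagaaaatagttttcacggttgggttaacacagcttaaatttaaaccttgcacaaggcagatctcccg
Dab2 second start (chr15:6386498-6386747, + strand): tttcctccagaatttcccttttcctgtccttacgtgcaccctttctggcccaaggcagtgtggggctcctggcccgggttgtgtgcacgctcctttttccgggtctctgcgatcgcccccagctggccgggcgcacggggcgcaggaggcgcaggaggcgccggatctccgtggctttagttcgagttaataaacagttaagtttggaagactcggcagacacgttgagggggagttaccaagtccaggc
Cubn (chr2:13491877-13492126, - strand): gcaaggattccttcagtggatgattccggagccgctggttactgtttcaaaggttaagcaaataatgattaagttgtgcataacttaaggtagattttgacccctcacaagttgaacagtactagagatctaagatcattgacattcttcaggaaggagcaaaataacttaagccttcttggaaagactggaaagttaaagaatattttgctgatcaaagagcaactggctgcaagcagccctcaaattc
Lrp2 (chr2:69586030-69586279, - strand): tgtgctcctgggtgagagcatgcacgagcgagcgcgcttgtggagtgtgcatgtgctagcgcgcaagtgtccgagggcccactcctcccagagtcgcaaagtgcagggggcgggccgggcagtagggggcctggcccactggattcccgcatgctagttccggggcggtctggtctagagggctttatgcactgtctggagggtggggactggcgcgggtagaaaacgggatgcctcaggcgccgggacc

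The search covered both strands for a GATA site (AGATAA and its like AGATAG plus the pair TGATAA and then TGATAG). It also took a forkhead site (TGTTTAC or TATTTAC) and the homeodomain string TAATT. The first Dab2 start held TGATAA from 179 to 174 bases upstream. It also held TAATT on the gene's strand from 106 to 102 bases upstream and on the opposite strand from 229 to 225, and these matches do not overlap. The Cubn and Lrp2 windows and the second Dab2 start held 0 matches to any of the 3 motifs. The shorter TAAT was not sought, and the Cubn window and the second Dab2 start hold it. These windows are thus not shown to lack homeodomain sites. Among all 32851 windows of this length in the table, 26.5% held the GATA site, 5.76% the forkhead site and 25% TAATT. Matches of this kind are therefore common. A match is a run of letters, not a measured binding site.

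Among the transcription factors, 2 probe sets lay above the array median on all 40 arrays. Gata4, which opens and activates endoderm genes together with Gata6, ranged from 8.26 to 8.86 (102713_at). Sox17 ranged from 6.80 to 7.73 on 92997_g_at and from 6.22 to 6.81 on 92996_at, the latter above the median on 1 array. The levels of different probe sets are not comparable with each other, so these ranges show only where each stands on its own arrays.

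Gata6, whose expression sets primitive endoderm apart from pluripotent cells, stayed below the array median on all arrays with its 3 probe sets. It ranged from 5.57 to 6.48 on 104698_at, from 5.76 to 6.46 on 93925_at and from 3.02 to 3.66 on 160662_r_at. Foxa2 ranged from 6.43 to 7.04 and exceeded the median on 9 arrays. Hnf4a, a nuclear receptor of visceral endoderm and liver, ranged from 5.91 to 6.82 and exceeded it on 1 array. Most of the regulators were thus near or below the middle of the array in every group.

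Of the uptake genes, Lrp2 was above the median on all 40 arrays (103377_at, 7.32 to 8.29). Dab2 98044_at ranged from 6.63 to 7.40 and was above it on 35 arrays. The other Dab2 sets ranged from 5.44 to 6.93 (98045_s_at, above it on 3 arrays) and from 5.12 to 6.07 (104633_at, on 0 arrays). Cubn ranged from 5.59 to 6.74 on 95000_g_at (above the median on 0 arrays, unrecombined clone 2 included) and from 6.05 to 7.55 on 94999_at (on 2 arrays). The secreted markers were low: Ttr ranged from 5.60 to 6.01 and Afp 101493_at from 5.68 to 6.35, both below the median on all arrays. Afp 101494_at reached 8.09 on array 2 of unrecombined Hex and ranged from 6.07 to 6.79 on all others.

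Across the 11 groups, Dab2, Cubn and Lrp2 varied by more than the spread between arrays, each through 1 probe set. The limma F test called 3 of the 17 probe sets at an adjusted p under 0.05, while 5.17% of all probe sets tested were called. They were Cubn 95000_g_at (adjusted p = 5.14e-08), Dab2 98045_s_at (1.33e-07) and Lrp2 103377_at (0.00119). The next was Sox17 92996_at (adjusted p = 0.0617), and the other 13 had adjusted p-values from 0.181 to 0.975. Without array 2 of unrecombined Hex, 6 were called, as were 12.9% of all probe sets.

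Dab2 98045_s_at measures the adaptor that links megalin and cubilin to clathrin. In unrecombined clone 2 it read 6.40, 6.93 and 6.53 without 4-OHT and 6.83, 6.66 and 6.80 with 4-OHT. These 6 arrays were higher than all others of the groups except 1: array 4 of unrecombined clone 1, at 6.42, exceeded the lowest of them. In recombined clone 2 it read 5.46, 5.44 and 5.80 without 4-OHT and 5.87, 5.66 and 5.79 with 4-OHT, all below every unrecombined array of that clone.

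The wild-type arrays read 5.89, 5.95, 5.65 and 6.05 for the same Dab2 set. Unrecombined Hex read 5.86, 5.52, 5.65 and 5.84, and recombined Hex 5.91, 5.65, 5.90 and 5.67. These 3 groups overlapped with each other and with recombined clone 2. Unrecombined clone 1 without 4-OHT read 6.38, 6.03, 6.35, 6.42 and 6.10, and with 4-OHT 6.32, 6.01 and 6.13. Recombined clone 1 read 6.02, 5.88, 6.15 and 6.05 without 4-OHT and 6.21, 5.89, 5.93 and 6.0 with it. The means of the clone 1 groups lay between those of wild type and unrecombined clone 2, and their arrays overlapped among themselves. Ordered by mean, neighbouring groups differed by less than the pooled within-group SD of 0.16, except for the step from unrecombined clone 1 (6.25 ± 0.18, SD, n = 5) to unrecombined clone 2 (6.62 ± 0.27, SD, n = 3), both without 4-OHT.

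Cubn 95000_g_at, which measures the receptor cubilin, separated unrecombined clone 2 more sharply. Its arrays read 6.63, 6.57 and 6.54 without 4-OHT and 6.70, 6.62 and 6.74 with 4-OHT. None of the other arrays of the 11 groups exceeded 6.22, so unrecombined clone 2 did not overlap with any other group. Recombined clone 2 read 5.85, 5.88 and 5.88 without 4-OHT and 5.60, 5.99 and 5.59 with it.

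Wild type read 5.77, 5.74, 5.73 and 5.73 for Cubn 95000_g_at. Unrecombined Hex read 5.75, 6.10, 5.83 and 5.64, with the 6.10 on array 2, and recombined Hex 5.77, 5.66, 5.81 and 5.95. Wild type and both Hex groups overlapped with recombined clone 2. Clone 1 read 5.86, 5.71, 5.96, 6.12 and 5.87 unrecombined and 6.03, 6.22 and 6.06 unrecombined with 4-OHT. The recombined arrays of clone 1 read 6.04, 6.01, 6.22 and 5.85 without 4-OHT and 6.12, 6.04, 5.90 and 6.12 with it. Clone 1 thus overlapped with itself in all 4 states and lay below unrecombined clone 2 in each. The only step between neighbouring means above the pooled SD of 0.13 was that from unrecombined clone 1 (6.11 ± 0.10) to unrecombined clone 2 without 4-OHT (6.58 ± 0.05, SD, n = 3 each), the former with 4-OHT.

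Lrp2, the large endocytic receptor megalin, had another pattern: it was highest in wild type and lowest in recombined clone 1. The wild-type arrays read 8.12, 8.03, 7.97 and 8.29. Recombined clone 1 read 7.32, 7.54, 7.48 and 7.59 without 4-OHT and 7.42, 7.56, 7.47 and 7.63 with it, so no array of these 2 groups reached a wild-type array. Unrecombined Hex read 7.76, 7.51, 7.83 and 7.69, and recombined Hex 7.83, 7.99, 7.93 and 8.06. Recombined Hex overlapped with wild type and unrecombined Hex did not.

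The remaining Lrp2 groups lay in between, and none of the neighbouring means in the order of groups differed by more than the pooled SD of 0.14 except unrecombined Hex (7.70 ± 0.14, SD, n = 4) and recombined clone 1 with 4-OHT (7.52 ± 0.09, SD, n = 4). Unrecombined clone 1 read 7.75, 7.68, 7.88, 7.85 and 7.68, and with 4-OHT 7.89, 7.98 and 7.50. Unrecombined clone 2 read 7.67, 8.03 and 7.75, and with 4-OHT 7.73, 8.01 and 8.15. Recombined clone 2 read 7.83, 7.77 and 7.84, and with 4-OHT 7.77, 8.0 and 7.92. Ordered by mean, these groups ran from 7.77 to 7.97 and overlapped with one another.

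**Figure D1:**
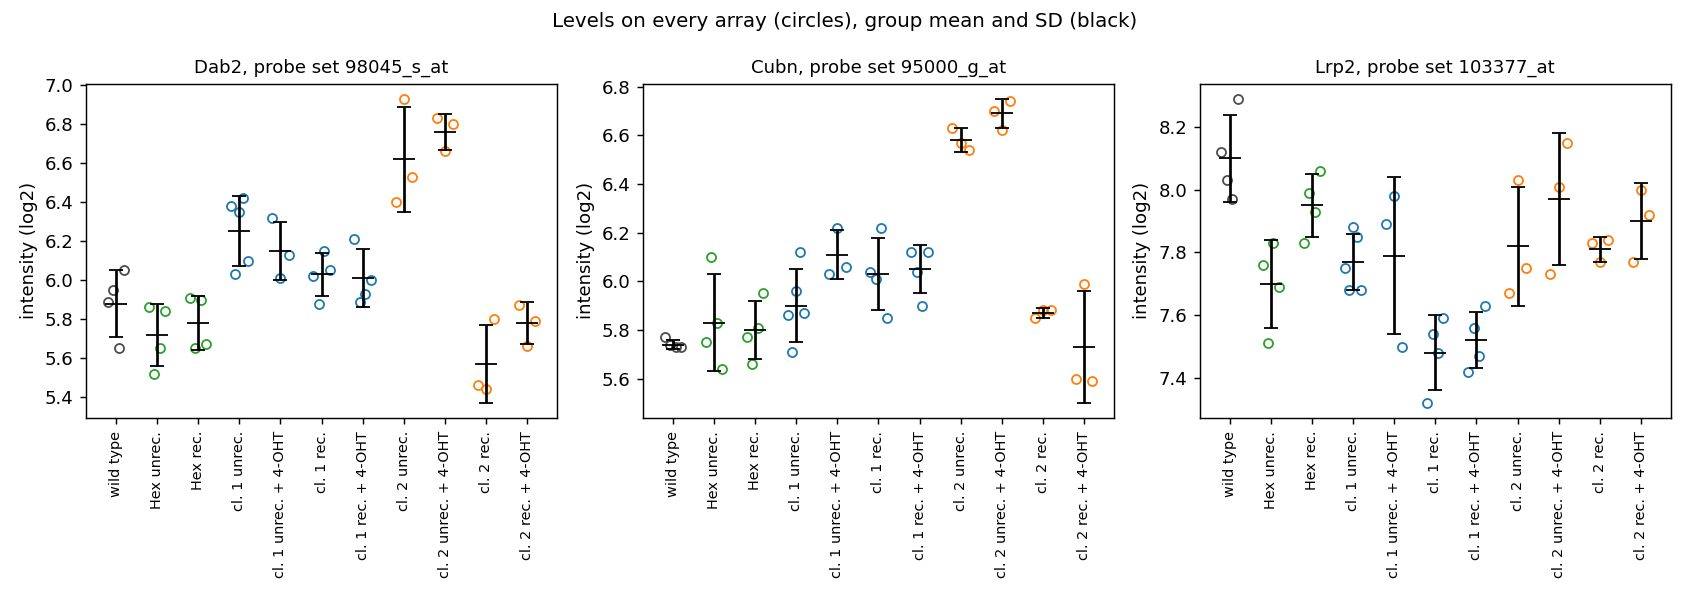
Log2 intensity (vertical axis) of Dab2 98045_s_at, Cubn 95000_g_at and Lrp2 103377_at on each of the 40 arrays (circles) in the 11 groups (horizontal axis; cl. is HexERTVP2 clone, unrec. unrecombined, rec. recombined), with group mean and SD in black. Unrecombined clone 2 stands highest for Dab2 and Cubn at means of 6.62 to 6.76 and 6.58 to 6.69, and Lrp2 is highest in wild type at 8.10 and lowest in recombined clone 1 at 7.48.

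Over the 11 group means the Dab2 and Cubn sets had a Pearson correlation of 0.91 (Spearman 0.78), given as a description, since all groups share the same line and platform. Neither followed Lrp2, with Pearson values of 0.07 for Dab2 and -0.03 for Cubn. The probe sets of other genes most like Dab2 98045_s_at over the 11 group means were those of Pla2g4a (r = 0.917), Cubn itself (0.905) and Fam102a (0.883). For Cubn 95000_g_at they were Srgn (0.958), the basement membrane collagen gene Col4a2 (0.926) and Atp4a (0.924). For Lrp2 they were Plekha1 (0.917), Ttc3 (0.915) and Suclg2 (0.822). All were picked as the highest correlations among the probe sets with 1 symbol, so high values come in part from that choice. Some varied little. Group means ran from 7.26 to 7.42 for Fam102a, 7.26 to 7.47 for Atp4a and 4.65 to 4.91 for Pla2g4a, against 7.53 to 8.35 for Col4a2.

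The other probe sets of Dab2 and Cubn followed these patterns only in part. Dab2 104633_at correlated with 98045_s_at at 0.86 over the 11 group means, and Dab2 98044_at at 0.40. Cubn 94999_at correlated with 95000_g_at at 0.07. In unrecombined clone 2 without 4-OHT, 94999_at read 6.69, 6.52 and 6.76, all above the wild-type range of 6.13 to 6.47. That difference was 0.40 ± 0.20 (SE; limma adjusted p = 0.21), and it passed without array 2 of unrecombined Hex (0.0498) and with the β-actin ratio in the fit (0.0214). In unrecombined clone 2 with 4-OHT, where 95000_g_at averaged 6.69, 94999_at read 6.63, 6.15 and 6.12. The call for Cubn therefore rests on 1 of its 2 probe sets, and that for Dab2 on 1 of its 3. By Affymetrix naming, sets ending in _s_at or _g_at can hold probes that other transcripts share, and whether these do was not tested. The Sox17 sets correlated at 0.62, the Afp sets at 0.66 and the Gata6 sets at 0.01 to 0.72.

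**Figure D2:**
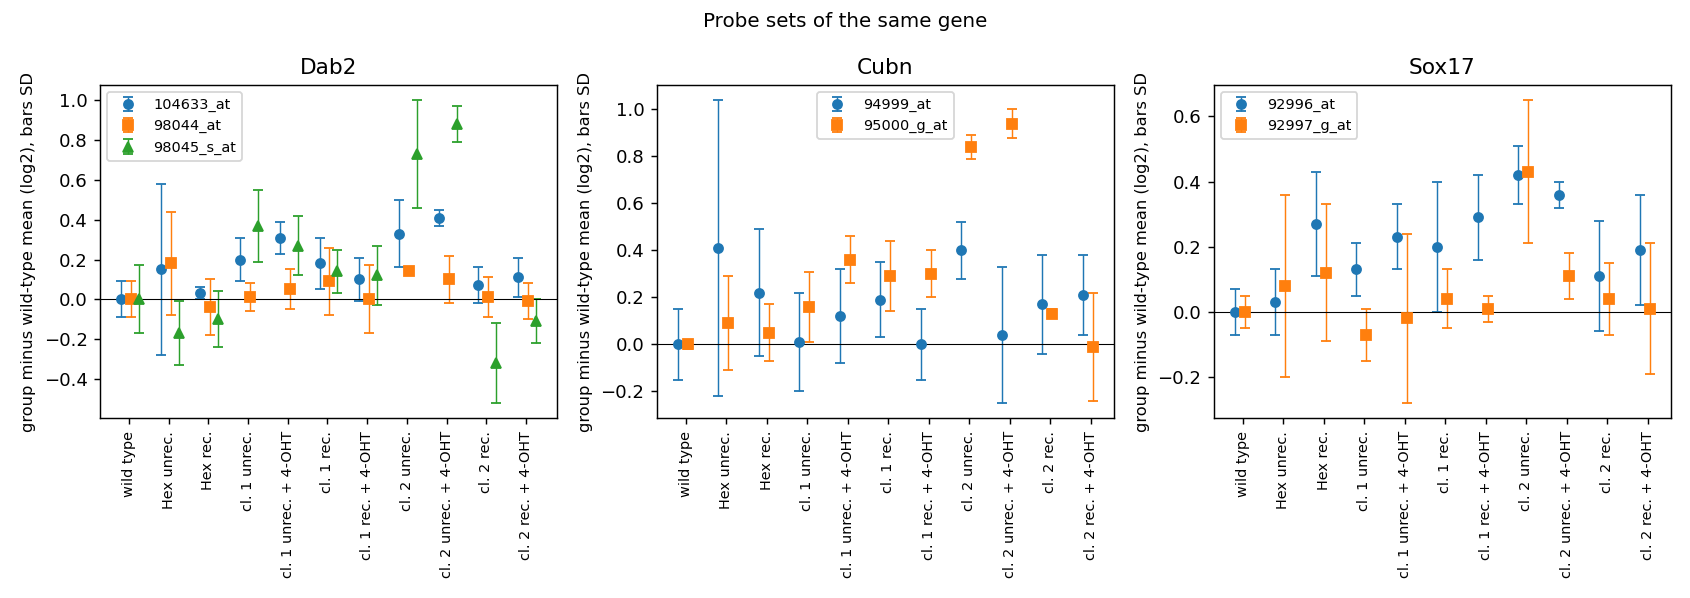
Group mean minus wild-type mean (log2, vertical axis; bars are the SD of the group) for each probe set of Dab2, Cubn and Sox17 over the 11 groups (horizontal axis). Dab2 104633_at stands above wild type in unrecombined clone 2 by 0.33 without and 0.41 with 4-OHT, Dab2 98044_at by 0.14 and 0.10, and the Cubn sets part in the group with 4-OHT at 0.94 and 0.04.

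Against wild type, unrecombined HexERTVP2 cells without 4-OHT, averaged over both clones, had more Dab2 and Cubn signal. In these bulk samples a change in the share of cells of a type and a change in RNA per cell cannot be told apart. Dab2 98045_s_at was higher by 0.55 ± 0.10 (SE; limma adjusted p = 0.0013) and Cubn 95000_g_at by 0.50 ± 0.08 (SE; limma adjusted p = 4.26e-04). These were 2 of the 17 probe sets, where 1.46% of all probe sets tested were called. The median difference of the 17 was 0.17, against 0.04 over all probe sets. Without array 2 of unrecombined Hex, which enters only through the shared estimate of spread, 5 were called higher and 8.13% of all probe sets were called. The 5 were these 2, Sox17 92996_at (0.28), Gata6 104698_at (0.35) and Dab2 104633_at (0.26). Lrp2 was then called lower, at -0.31 (limma adjusted p = 0.0214).

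The clones were then set against wild type separately, a choice made after seeing the data. Unrecombined clone 2 without 4-OHT had 5 of 17 probe sets higher, from Cubn, Dab2, Gata6 and Sox17, and 0 lower. Of all probe sets tested 6.79% were called in this comparison, and 3.28% of all were called higher. Cubn 95000_g_at was higher by 0.84 ± 0.10 (SE), or 1.79-fold, with a limma adjusted p of 2.3e-06. Dab2 98045_s_at was higher by 0.73 ± 0.13 (SE), or 1.66-fold (limma adjusted p = 3.22e-04).

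Among the transcription factors, Gata6 104698_at read 6.18, 6.20 and 6.33 in unrecombined clone 2 and 5.74, 5.83, 5.79 and 5.57 in wild type. The groups did not overlap, and the difference was 0.51 ± 0.12 (SE; limma adjusted p = 0.00823). Without array 3 of unrecombined clone 2 it was 0.46 (0.0676). The other Gata6 sets did not pass, and their arrays overlapped with wild type. Set 93925_at differed by 0.22 ± 0.10 (SE, limma adjusted p = 0.178) and 160662_r_at by 0.16 ± 0.10 (SE, 0.298). Sox17 92996_at read 6.76, 6.81 and 6.64 against 6.31, 6.35, 6.37 and 6.22 in wild type, a difference of 0.42 ± 0.10 (SE; limma adjusted p = 0.0111). For this Sox17 set no arrays overlapped. Sox17 92997_g_at read 7.32, 7.40 and 7.73 against 7.05, 7.12, 7.0 and 7.05, a difference of 0.43 ± 0.13 (SE; limma adjusted p = 0.0362). This call was lost without array 3 of unrecombined clone 2 (0.30, limma adjusted p = 0.253), without each of the wild-type arrays in turn (0.0532 to 0.0832) and with quantile normalisation (0.0879).

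The direction was shared by most of the set. In unrecombined clone 2 without 4-OHT 16 of the 17 probe sets averaged above wild type, with a median difference of 0.33 against 0.07 over all probe sets. Without array 2 of unrecombined Hex, 9 were called higher and Lrp2 lower, where 25.4% of all probe sets were called. For 9 of the 17 all 3 arrays exceeded all 4 wild-type arrays, as did 16.3% of all probe sets tested. Values that did not pass the test included Hnf4a at 0.39 ± 0.13 (SE; limma adjusted p = 0.0668), Dab2 104633_at at 0.33 ± 0.13 (SE; 0.106), Gata4 at 0.22 ± 0.11 (SE; 0.191) and Foxa2 at 0.24 ± 0.11 (SE; 0.177). Ttr differed by 0.06. Lrp2 was the exception in sign, at -0.28 ± 0.11 (SE; 0.104). Most of the 17 also averaged above wild type in several other groups, so this direction is not particular to unrecombined clone 2. In recombined clone 1 without 4-OHT, the difference from wild type was 0.21 for Gata6 104698_at, 0.2 for Sox17 92996_at and -0.62 for Lrp2. The share of all probe sets that averaged above wild type was not counted.

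Unrecombined clone 2 with 4-OHT consists of other arrays of the same clone, which had also entered the F test. It was set against the same wild-type arrays, which had no 4-OHT. There 2 of 17 probe sets were called, both higher, where 0.837% of all probe sets were called. Dab2 98045_s_at was higher by 0.88 ± 0.13 (SE; limma adjusted p = 3.07e-05) and Cubn 95000_g_at by 0.94 ± 0.10 (SE; limma adjusted p = 3.1e-07). Gata6 104698_at differed by 0.44 (0.0645) and Sox17 92996_at by 0.36 (0.091), short of the threshold. Unrecombined clone 1 without 4-OHT had 0 of 17 called against wild type with limma, 2 at an unadjusted p under 0.05, where 0.298% of all probe sets were called. Its Dab2 98045_s_at difference was 0.37 ± 0.11 (SE; limma adjusted p = 0.273).

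**Figure D3:**
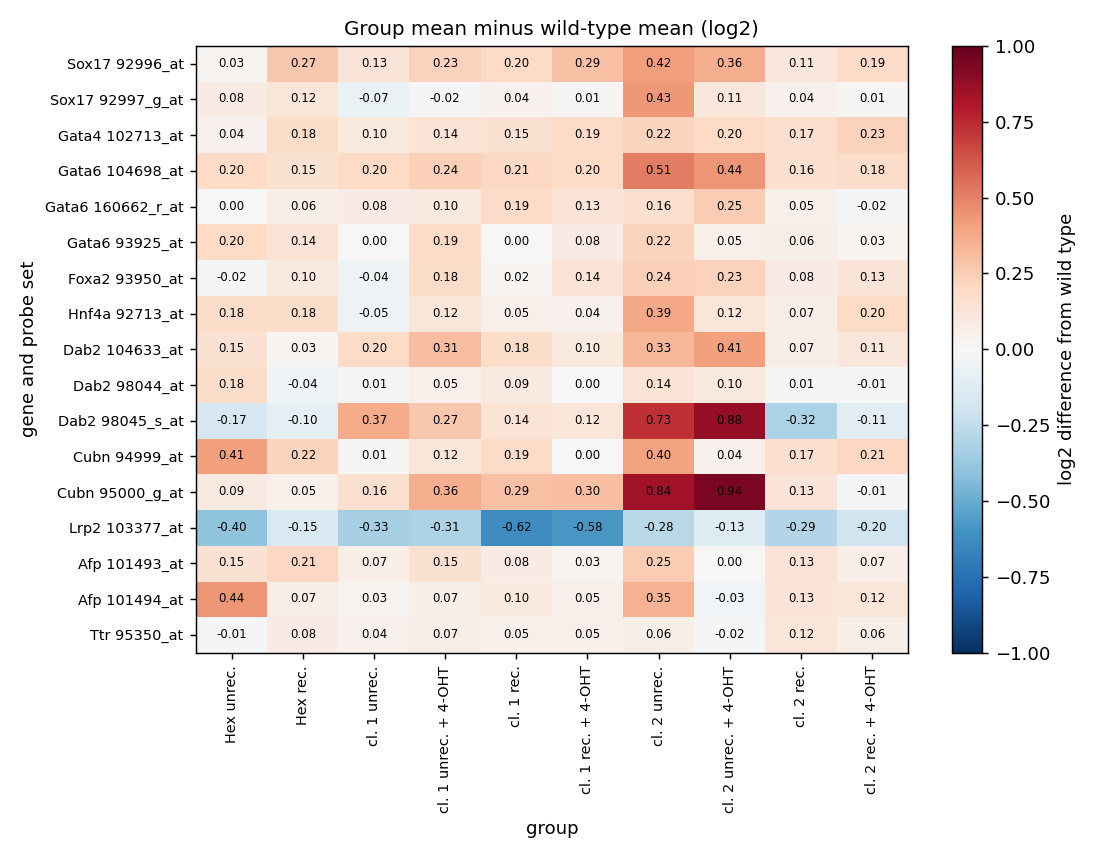
Group mean minus wild-type mean (log2; red higher, blue lower, value printed in each cell) for the 17 probe sets (rows) in the 10 other groups (columns). The 2 columns of unrecombined clone 2 hold the highest Dab2 98045_s_at and Cubn 95000_g_at values, 0.73 to 0.94, and the Lrp2 row is below wild type throughout, down to -0.62 in recombined clone 1.

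The clones were also compared directly, and Cubn 95000_g_at differed between them in the unrecombined state. Without 4-OHT, Cubn 95000_g_at was higher in clone 2 by 0.68 ± 0.10 (SE; limma adjusted p = 6.35e-05) and Sox17 92997_g_at by 0.50 ± 0.12 (SE; limma adjusted p = 0.0213). These were 2 of 17, against 2.01% of all probe sets. The Sox17 call was lost without array 3 of clone 1 (limma adjusted p = 0.0562) or array 3 of clone 2 (0.259). With 4-OHT, Cubn 95000_g_at was higher by 0.58 ± 0.11 (SE; limma adjusted p = 0.00444) and Dab2 98045_s_at by 0.61 ± 0.13 (SE; 0.0225), where 0.346% of all probe sets were called. The Dab2 call was lost without array 2 (limma adjusted p = 0.249) or 4 (0.112) of clone 1 with 4-OHT, and without array 2 (0.155) or 4 (0.16) of clone 2 with 4-OHT. Fitted on the arrays of these 2 groups alone, both calls with 4-OHT were lost (limma adjusted p = 0.0812 for Cubn and 0.113 for Dab2). In the recombined state 0 of 17 were called between the clones by limma in either condition, 2 at an unadjusted p under 0.05 in each, against 0.266% of all probe sets without 4-OHT and 0.193% with it.

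Averaged over all 4 states, clone 2 differed from clone 1 in 1 of the 17 probe sets, where 1.22% of all were called. It was Lrp2, at 7.87 in clone 2 and 7.64 in clone 1, a difference of 0.23 ± 0.06 (SE; limma adjusted p = 0.0209). The call was lost without array 4 of unrecombined clone 1 with 4-OHT (limma adjusted p = 0.0581), array 2 of unrecombined clone 2 (0.0577), array 4 of unrecombined clone 2 with 4-OHT (0.0622) or array 3 of recombined clone 2 with 4-OHT (0.0505). Cubn 95000_g_at differed by 0.19 ± 0.05 (SE; 0.0533).

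Dab2 was lower in recombined than in unrecombined HexERTVP2 cells without 4-OHT, averaged over both clones. Dab2 98045_s_at fell from 6.44 to 5.80, a difference of -0.64 ± 0.09 (SE) or 1.56-fold (limma adjusted p = 5.85e-05). It was the only 1 of the 17 called, where 0.467% of all probe sets were called. Cubn 95000_g_at differed by -0.29 ± 0.07 (SE; limma adjusted p = 0.0508), and passed without array 2 of unrecombined Hex (0.00732). For Dab2 98045_s_at the difference was -1.05 in clone 2 and -0.23 in clone 1, so the average rests mainly on clone 2. The labels do not give how the recombined cells were derived, so recombination and that derivation cannot be told apart.

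Taken by clone, the fall passed the test in clone 2. In that clone, without 4-OHT, Dab2 98045_s_at fell from 6.62 ± 0.27 to 5.57 ± 0.20 (SD, n = 3 each), which is 2.07-fold lower (difference -1.05 ± 0.13, SE; limma adjusted p = 2.15e-05). Cubn 95000_g_at fell from 6.58 ± 0.05 to 5.87 ± 0.02 (SD, n = 3 each), which is 1.64-fold lower (-0.71 ± 0.11, SE; limma adjusted p = 4.52e-04). These were 2 of the 17 probe sets, against 0.322% of all. Fitted on the arrays of these 2 groups alone, the Dab2 call was lost (limma adjusted p = 0.0815) and the Cubn call was not (0.0432). The log2 β-actin ratio was higher by 0.30 in the recombined arrays, and both calls held in the fit that includes it.

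The arrays with 4-OHT are separate samples of the same clone, and they gave the same 2 calls. They had also entered the F test that singled out these sets, so this is not an independent test. Dab2 98045_s_at fell in clone 2 from 6.76 ± 0.09 to 5.78 ± 0.11 (SD, n = 3 each; -0.99 ± 0.13, SE; limma adjusted p = 5.87e-05). Cubn 95000_g_at fell from 6.69 ± 0.06 to 5.73 ± 0.23 (SD, n = 3 each; -0.96 ± 0.11, SE; limma adjusted p = 3.15e-06). Of all probe sets 0.105% were called. On the arrays of these 2 groups alone both calls were lost (limma adjusted p = 0.057 for Dab2 and 0.106 for Cubn).

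In clone 1, limma called 0 of the 17 probe sets with recombination in either condition, 2 at an unadjusted p under 0.05 without 4-OHT and 1 with it. Of all probe sets 0.547% were called without 4-OHT and 0.209% with it. Dab2 98045_s_at differed by -0.23 ± 0.11 (SE) without 4-OHT and -0.15 ± 0.13 (SE) with it, and Cubn 95000_g_at by 0.13 ± 0.09 and -0.06 ± 0.10 (SE). Lrp2 differed by -0.28 ± 0.10 and -0.27 ± 0.11 (SE).

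The difference between the clones was itself tested. Without 4-OHT the change with recombination was lower in clone 2 than in clone 1 by 0.82 ± 0.17 for Dab2 98045_s_at (SE; limma adjusted p = 0.0214) and by 0.84 ± 0.14 for Cubn 95000_g_at (SE; 0.0017), where 0.29% of all probe sets were called. With 4-OHT the values were 0.84 ± 0.18 for Dab2 (SE; limma adjusted p = 0.0453) and 0.90 ± 0.15 for Cubn (SE; 0.00172), where 0.137% were called. The Cubn calls held with each array left out in turn and under the other settings tried. Both Dab2 calls were lost with quantile normalisation (limma adjusted p = 0.0706 without and 0.0514 with 4-OHT) and on only the arrays compared (0.0813 and 0.0516). The Dab2 call without 4-OHT was lost without array 2 of unrecombined clone 2 (0.106), or array 2 (0.105) or 3 (0.108) of recombined clone 2. The Dab2 call with 4-OHT held in only 12 of the 40 fits that each left out 1 array, with the highest adjusted p, 0.23, without array 2 of unrecombined clone 1 with 4-OHT.

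Other genes of clone 2 did not pass. Sox17 92997_g_at differed by -0.39 ± 0.13 (SE; limma adjusted p = 0.252), Gata6 104698_at by -0.35 ± 0.13 (SE; 0.282) and Hnf4a by -0.33 ± 0.14 (SE; 0.394), all with recombination without 4-OHT. Without array 2 of unrecombined Hex these Sox17 and Gata6 sets passed (0.0456 and 0.020), which made 4 of 17 where 4.17% of all were called. Recombined clone 2 without 4-OHT had 0 of 17 called against wild type by limma, 2 at an unadjusted p under 0.05, where 0.0966% of all were called. Its Dab2 98045_s_at mean was 5.57 against 5.88 in wild type, and its Cubn 95000_g_at mean 5.87 against 5.74.

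**Figure D4:**
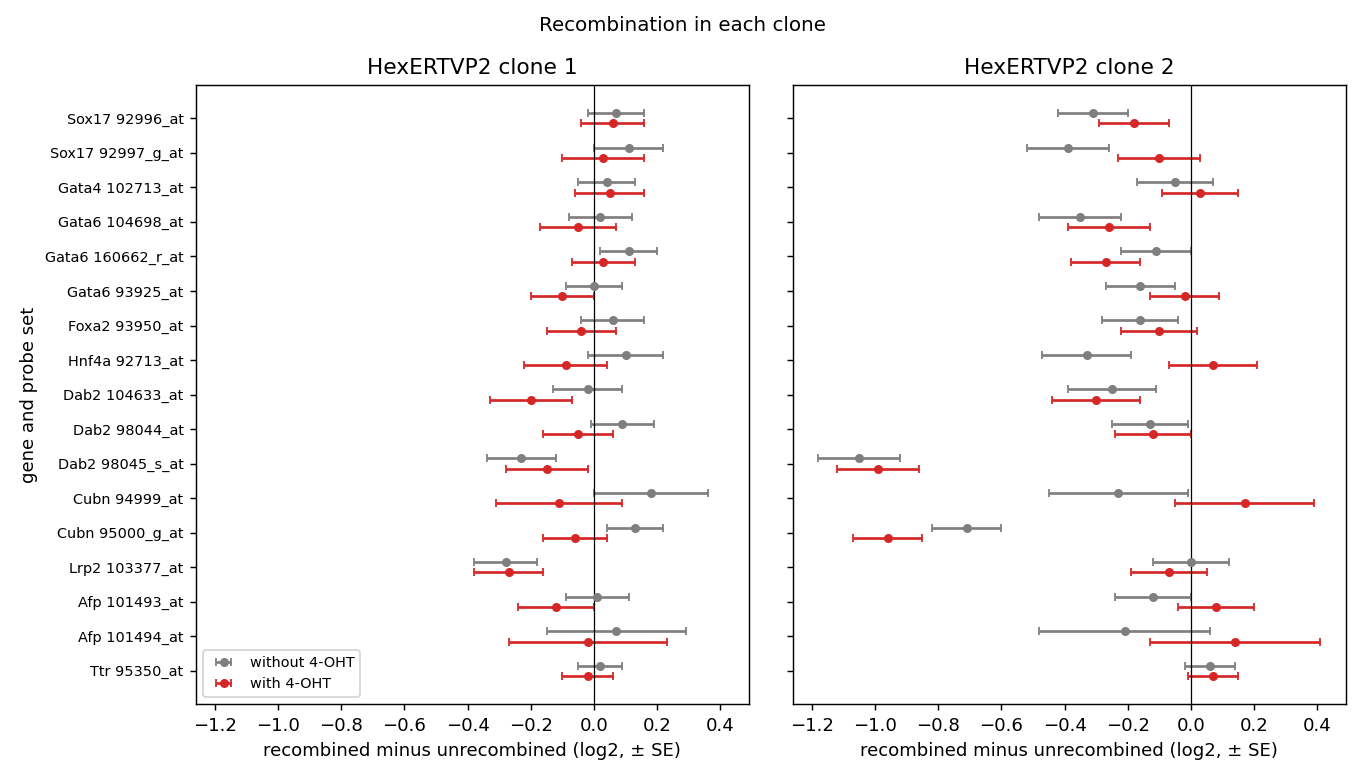
Recombined minus unrecombined (log2, horizontal axis; bars are the SE from limma) for the 17 probe sets (vertical axis) in HexERTVP2 clone 1 and clone 2, without 4-OHT (grey) and with it (red). In clone 2 Dab2 98045_s_at and Cubn 95000_g_at stand apart at -1.05 and -0.71 without and -0.99 and -0.96 with 4-OHT, and in clone 1 the values of these sets lie between -0.23 and 0.13.

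Lrp2 was lower in recombined clone 1 than in wild type, by 0.62 on the log2 scale (7.48 ± 0.12, n = 4, against 8.10 ± 0.14, SD, n = 4). That is 1.53-fold lower, with an SE of 0.10 and a limma adjusted p of 5.1e-04. It was 1 of 17 called, where 0.668% of all probe sets were called. With 4-OHT the difference was -0.58 ± 0.10 (SE; limma adjusted p = 8.95e-04), where 0.829% were called. Both calls held with each array left out in turn. Wild type and recombined clone 1 without 4-OHT had the highest and lowest group means for Lrp2, and both comparisons were added after seeing the data. Unrecombined clone 1 without 4-OHT itself differed from wild type by -0.33 ± 0.10 (SE; limma adjusted p = 0.222). The change with recombination in clone 1 without 4-OHT was -0.28 ± 0.10 (SE; limma adjusted p = 0.366). Neither was called, and the share of each in the difference was not tested.

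Recombination of the Hex insertion changed none of the 10 genes beyond the threshold. Against unrecombined Hex, limma called 0 of the 17 probe sets, 3 at an unadjusted p under 0.05, while 3.37% of all probe sets were called. Sox17 92996_at read 6.59, 6.43, 6.80 and 6.51 in recombined and 6.47, 6.24, 6.30 and 6.36 in unrecombined Hex. The groups overlapped, and the difference was 0.24 ± 0.09 (SE; limma adjusted p = 0.173). Recombined minus unrecombined, these groups were apart by -0.34 in the log2 β-actin ratio. In the fit that includes that ratio the Sox17 difference was 0.29 (limma adjusted p = 0.0416). Lrp2 differed by 0.25 ± 0.10 (SE; limma adjusted p = 0.185).

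Against wild type, recombined Hex had 0 of 17 called by limma, 1 at an unadjusted p under 0.05, where 0.266% of all were called. That 1 was Sox17 92996_at at 0.27 ± 0.09 (SE; limma adjusted p = 0.422). Unrecombined Hex, set against the same wild-type arrays, had 1 of 17 called, where 4.82% of all were called and 4.07% as lower. It was Lrp2, at -0.40 ± 0.10 (SE; limma adjusted p = 0.0149). The call was lost without array 2 of unrecombined Hex (-0.34, limma adjusted p = 0.0659), without array 4 of wild type (0.0814), with quantile normalisation (0.063) and on only the arrays compared (0.369).

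Averaged over the clones, 4-OHT changed none of the 17 probe sets beyond the threshold. In recombined HexERTVP2 cells limma called 0, with 0 at an unadjusted p under 0.05, and 0.0322% of all probe sets. The 17 differences lay between -0.07 and 0.09. In unrecombined cells it called 0, with 1 at an unadjusted p under 0.05, and 0% of all, and the differences lay between -0.16 and 0.15. The only 1 at an unadjusted p under 0.05 was Cubn 95000_g_at at 0.15 ± 0.07 (SE; limma adjusted p = 1). The interaction of 4-OHT with recombination gave 0, with 1 at an unadjusted p under 0.05, and 0.0161% of all. Taken by clone, limma also called 0 of the 17 in each state, with 0 at an unadjusted p under 0.05 in recombined clone 1 and in recombined clone 2 and 2 in either unrecombined clone. Of all probe sets 0.00805% were called in recombined clone 1 and 0% in the other 3. Dab2 98045_s_at in recombined clone 2 differed by 0.21 ± 0.13 (SE; limma adjusted p = 1), and it passed with array weights (0.33, limma adjusted p = 0.0257).

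The wider endoderm genes were read in the same comparisons, with each gene represented by its brightest probe set. Counted by that rule, 1 of the 10 genes above, Sox17, was higher in unrecombined clone 2 without 4-OHT than in wild type, and 0 were lower. With recombination in clone 2, 0 of the 10 were then called, with or without 4-OHT. The brightest sets of Dab2 and Cubn are not the sets called above, so those counts over all probe sets are not comparable with the list counts here. In unrecombined clone 2 without 4-OHT against wild type, the counts of each list stand beside 6.79% of all probe sets called, or 25.4% without array 2 of unrecombined Hex. Among basement membrane and keratin genes, which primitive and parietal endoderm express strongly, 3 of 16 were higher in unrecombined clone 2 without 4-OHT than in wild type: the collagen IV genes Col4a1 (1.37 ± 0.20, SE) and Col4a2 (0.79 ± 0.07) and the laminin gene Lama1 (0.57 ± 0.15). With recombination in clone 2 without 4-OHT, where 0.322% of all were called, the same 3 fell, Col4a1 by 1.15, Lama1 by 0.84 and Col4a2 by 0.65 on the log2 scale. With 4-OHT, where 0.105% of all were called, 2 fell, Col4a1 by 1.58 and Col4a2 by 0.70. In clone 1 without 4-OHT, where 0.547% of all were called, 3 rose with recombination: Col4a1 (1.05), Krt18 (0.90) and Col4a2 (0.30). Against wild type, limma also called recombined clone 1 without 4-OHT higher in Krt18 (1.28), Col4a1 (1.2), Krt8 (0.79) and Col4a2 (0.52). Higher Col4a1 and Col4a2 signal was thus not particular to unrecombined clone 2. In clone 1 with 4-OHT limma called 0 of the 16, with 6 at an unadjusted p under 0.05 and 0.209% of all called. Krt18 differed there by 0.85 ± 0.22 (SE; limma adjusted p = 0.116) and passed without array 2 of unrecombined Hex (0.0453). The list's median difference in unrecombined clone 2 against wild type was 0.19, against 0.07 over all probe sets. Without array 2 of unrecombined Hex, 6 of the 16 were higher there and 1 lower, where 25.4% of all were called.

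Among secreted visceral endoderm proteins, 3 of 17 were higher in unrecombined clone 2 without 4-OHT than in wild type: the apolipoprotein genes Apoa1 (0.48 ± 0.09, SE) and Apoc2 (0.30 ± 0.09) and the protease inhibitor gene Spink1 (0.27 ± 0.08). Apoa1 fell by 0.44 on the log2 scale with recombination in clone 2 and was the only 1 of the 17 that changed there. The list's median difference against wild type was 0.23, against 0.07 over all, and without array 2 of unrecombined Hex 6 were higher and 1 lower. Of 11 partners of cubilin and megalin in uptake and the apical membrane, 0 were higher and 1 lower, the scaffold gene Slc9a3r1 (-0.39 ± 0.10, SE). Without that array 1 was higher and 2 lower, a share near the 25.4% of all probe sets. Of 12 other endoderm transcription factors limma called 0, with 3 at an unadjusted p under 0.05 and 3 higher without that array. Cebpa differed by 0.26 ± 0.09 (SE; limma adjusted p = 0.0771) and Nr2f2 by -0.25 ± 0.16 (SE; 0.334).

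Among FGF and receptor genes that act in the choice between primitive endoderm and pluripotent cells, 4 of 16 were lower and 1 higher in unrecombined clone 2 than in wild type. The lower ones were Fgfr2 (-0.65 ± 0.09, SE), Map2k1 (-0.61 ± 0.17), Sos1 (-0.49 ± 0.13) and Pdgfa (-0.47 ± 0.11), and the higher one was Fgfr4 (0.27 ± 0.08). Pluripotency genes were lower in 5 of 22 and higher in 0, led by Dppa3 (-1.50 ± 0.20, SE), Klf4 (-0.94 ± 0.23), Tfcp2l1 (-0.91 ± 0.17) and Nanog (-0.86 ± 0.16), with Nr5a2 at -0.55 ± 0.12. With recombination in clone 2 without 4-OHT, limma called 0 of the 16 and 0 of the 22, with 2 and 9 at an unadjusted p under 0.05. With array 2 of unrecombined Hex left out, 2 and 7 were called higher, and 4.17% of all were called. Dppa3 differed by 0.85 ± 0.21 (SE; limma adjusted p = 0.0699) and Klf4 by 0.77 ± 0.25 (SE; 0.204).

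In the Hex line, where none of the 10 genes passed with recombination and 3.37% of all probe sets did, 4 of 16 basement membrane and keratin genes were higher in recombined than in unrecombined cells: Krt19 (1.38 ± 0.29, SE), Col4a1 (1.10 ± 0.18), Krt8 (1.02 ± 0.19) and Serpinh1 (0.77 ± 0.22). Unrecombined Hex was itself below wild type in 3 of the 16, where 4.82% of all were called: Krt19 (-1.27 ± 0.29, SE; limma adjusted p = 0.00769), Sparc (-0.81 ± 0.17, SE; 0.00332) and Krt8 (-0.66 ± 0.19, SE; 0.0375, and 0.273 without array 2). Recombined Hex against wild type had 0 of the 16 called by limma, with 3 at an unadjusted p under 0.05. Col4a1 differed there by 0.64 ± 0.18 (SE; limma adjusted p = 0.236) and Krt8 by 0.37 ± 0.19 (SE; 0.613). Of the other factors Zfpm1 rose by 0.44 ± 0.11 (SE), 1 of 12. Of the secreted proteins Spink1 fell by 0.33 on the log2 scale, 1 of 17, and it was above wild type by 0.30 ± 0.07 (SE) in unrecombined Hex. Of the uptake partners Slc9a3r1 rose by 0.42 ± 0.09 (SE), 1 of 11, and unrecombined Hex differed from wild type by -0.56 ± 0.09 (SE). Without array 2 of unrecombined Hex, the calls for Serpinh1 (limma adjusted p = 0.143) and Zfpm1 (0.0519) were lost.

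Fibroblast markers were checked because feeder cells, where they are used, express collagens. The sample titles do not name feeder cells. In unrecombined clone 2 without 4-OHT limma called 0 of 16 against wild type, with 2 at an unadjusted p under 0.05 and 3 called higher without array 2 of unrecombined Hex. With 4-OHT it called 1, Acta2 (0.95 ± 0.15, SE). Their summed linear intensity was 2464 to 2803 and 2574 to 2758 in these groups, 2305 to 2391 in wild type and 2423 to 2584 in recombined clone 2 without 4-OHT. It was 2997 to 3189 in recombined clone 1 without 4-OHT, and 2087 to 4044 in unrecombined Hex, with the 4044 on array 2 and 2087 to 2180 on the others. The part of such cells in the differences was not tested.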

How the data were processed

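Total RNA was the starting material for each array, and the label was biotin. The deposited table gives 1 linear intensity per probe set and array, which the submitters' processing notes credit to RMA, without a version or settings (background correction, quantile normalisation and summary of the probes). A genome build is not given in the sources used here. Intensities were converted to log2, and 66 Affymetrix control sets of 12488 were left out, with no filter on level, so all 17 probe sets entered the test. One limma model (version 3.58.1, under R 4.3.3; lmFit, then eBayes) held all 40 arrays and left 29 residual degrees of freedom. Tests were two-sided, with Benjamini-Hochberg adjustment over 12422 probe sets at a threshold of 0.05. In 4 arrays the words and the code of the title name different groups, so they entered no comparison. In 1 array of recombined clone 2 with 4-OHT the code holds a stray minus sign, and the words were followed. Of the comparisons, 9 follow the design and 21, by clone or with 4-OHT, were added after seeing the data. The genes and lists were chosen with earlier results of these data known. All 17 probe sets are named, as is every one that passed in the main fit of a comparison given here. Recombination with 4-OHT is given by clone, and its average over the clones is left out. From other lists up to 4 that passed are named, or 2 as values, with Fgfr4 and Nr5a2 added after their values were seen. For genes that passed the F test the 3 most alike are named. By GEO's platform annotation, 10833 probe sets carry 1 symbol, 396 several and 1193 none. The procedure was tested on simulated data with independent normal spread. These held no clone differences and no deviating array, so that test does not cover such features. The number of arrays limits the precision. Alternatives were median centring, quantile normalisation, a filter at a mean log2 of 6, robust eBayes, array weights, fits on only the arrays compared, the β-actin ratio as a covariate, a replicate block and arrays left out. Plots used Python 3.11.15 and matplotlib 3.10.9.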

Additional observations from a re-analysis of the deposited data

Results flagged for a closer look

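The change with recombination differed between the HexERTVP2 clones by a direct test. For Dab2 98045_s_at clone 2 minus clone 1 was -0.82 without 4-OHT (limma adjusted p = 0.0214) and -0.84 with it (0.0453). Both Dab2 calls were lost with quantile normalisation (limma adjusted p = 0.0706 and 0.0514) and on only the arrays compared (0.0813 and 0.0516). For Cubn 95000_g_at the value was -0.84 without 4-OHT (0.0017) and -0.90 with it (0.00172), and these calls held under those settings.

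A single wild-type array stood apart from the other 3 in 2 probe sets. On array 4, Hnf4a 92713_at read 5.91 where the others read 6.16 to 6.18. On the same array Afp 101494_at read 6.45 where the others read 6.18 to 6.22. Chance flags about 1 in 20 groups, and these were 2 of 102 groups of 4 or more arrays examined.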

How the results depend on the processing

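In the 9 comparisons of the design, over 7443 values of single probe sets under other settings, 7382 stayed on their side of the threshold (223 of them changed sign, called under neither setting), 51 passed only there, 10 no longer passed and 0 reversed. In the 21 added comparisons 57 of 3087 values passed only under another setting, 27 of them with array weights, and 10 no longer passed: Dab2 98045_s_at in 7, Cubn 95000_g_at in 2 and Sox17 92997_g_at in 1, all with quantile normalisation or on only the arrays compared (limma adjusted p = 0.0514 to 0.113). With single arrays left out of these, 43 of 14280 values no longer passed and 21 passed only there. Among the 17 probe sets, the number called for recombined against unrecombined Hex was 1 once the β-actin ratio entered the fit. For unrecombined Hex against wild type it was 0 with quantile normalisation, 0 on only the arrays compared and 0 without array 2 of unrecombined Hex. For clone 2 against clone 1 it was 2 with quantile normalisation, the filter at 6, only the arrays compared, the β-actin ratio or without that array, and 3 with array weights. For recombination of HexERTVP2 without 4-OHT it was 2 with quantile normalisation, the filter, robust eBayes, array weights, the β-actin ratio or without that array. For unrecombined HexERTVP2 against wild type it was 6 with array weights, the β-actin ratio or without that array. It was 4 there on only the arrays compared and 3 with robust eBayes. The F test called 8 with array weights, 5 with the β-actin ratio and 6 without that array. The cause of these changes was not tested. Leaving out 1 array at a time gave 3 to 6 for the F test, 0 to 1 for unrecombined Hex against wild type, 0 to 2 for clone 2 against clone 1, 1 to 2 for recombination, 2 to 6 for unrecombined HexERTVP2 against wild type, and 0 in the other 5 comparisons. Arrays of the same number in different groups did not consistently deviate together: their correlations ran from -0.70 to 0.85 with a mean of 0.08, against a mean of -0.02 for different numbers. Of the 40 arrays 17 were closest to one of their own number, where 23.9% of the pairs share a number, a hint from the data and not the design. With the replicate number as a block, clone 2 against clone 1 had 0 called, Lrp2 at 0.22 (limma adjusted p = 0.0563), and the other 9 counts were those of the fit without it. The number of arrays and the low signal of most of these probe sets, near or below the array median, limit what can be detected.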

Other observations

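In other lineage lists, unrecombined clone 2 without 4-OHT, where 6.79% of all probe sets were called, differed from wild type in 2 of 9 genes of the anterior visceral endoderm, both higher: the homeobox gene Lhx1 (0.43 ± 0.10, SE; limma adjusted p = 0.00972) and the Wnt receptor gene Fzd8 (0.30 ± 0.08, SE; 0.0263). Of 9 genes of definitive endoderm and streak 0 were higher and 1 lower, the cadherin gene Cdh2 (-1.13 ± 0.29, SE; limma adjusted p = 0.0165). Of 13 trophoblast genes 1 was higher, Ascl2 (0.35 ± 0.09, SE; limma adjusted p = 0.0195), and 2 were lower, Tfap2c (-0.78 ± 0.13, SE; 3.07e-04) and Fgfr2 (-0.65 ± 0.09, SE; 1.81e-05). With recombination in clone 2 without 4-OHT, limma called 0 genes of these lists, with 2, 2 and 1 at an unadjusted p under 0.05, and 0, 1 and 1 as higher without array 2 of unrecombined Hex, where 0.322% and 4.17% of all were called.

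The 4 arrays whose labels contradict themselves are given as single values. An array described as unrecombined clone 2 without 4-OHT, with the code of clone 2 with 4-OHT, read 6.82 for Dab2 98045_s_at and 6.91 for Cubn 95000_g_at. An array described as unrecombined clone 2 with 4-OHT, with the code of clone 1 with 4-OHT, read 6.53 and 5.98. Of 2 arrays described as recombined clone 1 with 4-OHT, that with the code of clone 2 without ligand read 5.23 and 5.93, and that with the code of clone 2 with 4-OHT read 5.92 and 5.73.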
